A study of Mus musculus with 7 samples.

Results

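Glycolysis and glycogen genes are followed here through the regrowth of a mouse muscle after disuse. The set was named gene by gene, and it holds 35 genes for glucose uptake, the glycolytic steps, lactate formation, the glycerol phosphate shuttle, and the making and breaking of glycogen. A gene was taken from an array row annotated with its symbol and no other, and the row with the highest mean log2 intensity stood for it. Of the 35 genes, 31 had such a row, out of 19938 genes with one in all. Of these 31, 29 reached the median intensity of an array on at least 1 of the 7 arrays, and so did 12102 genes overall. Aldoc and Pygl were the 2 that did not. Gapdh lay only on 25 rows shared with other symbols, and Eno1, Gpi1 and Pfkfb1 matched no annotated row, so these 4 were not analysed here.

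Muscle takes up glucose through the transporters GLUT1 (Slc2a1) and GLUT4 (Slc2a4), and hexokinase traps it as glucose 6-phosphate. From there glucose either enters glycolysis, whose pace is set largely at phosphofructokinase, or is stored as glycogen through phosphoglucomutase, UDP-glucose pyrophosphorylase, glycogen synthase and the branching enzyme. In contraction, phosphorylase kinase switches on glycogen phosphorylase and the store feeds glycolysis, which fast fibres rely on most. Many of these steps are served by a muscle form and by one or more forms of other tissues.

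The muscle was the left plantaris, a fast muscle of the calf, from male C57BL/6J mice aged 5 months. All animals had spent 2 weeks in hind limb suspension, which unloads the hind limbs, so no muscle that had never been suspended was analysed here. The groups were d0, taken at the end of suspension and named the control in the labels, and d1, d3, d5, d7, d10 and d14, named for the days of reloading in the cage. Each of the 7 groups was 1 Mouse Gene 1.0 ST array of RNA pooled from 6 animals, so a ratio of 1 day to another had no replicate check. Values are the authors' normalized intensities on a linear scale, and ratios are of the later day over d0, on the log2 scale where so stated. In whole muscle, fewer cells of a type and less RNA per cell cannot be told apart.

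The arrays were alike in scale, with median intensities of 128.1 to 131.8 over 35556 rows. The d0 array stood somewhat apart by rank, with a mean Spearman rho to the others of 0.972, against 0.984 to 0.989 for the later arrays, and 61.1% to 72.2% of genes lay above d0 on a later day. For the members with the widest ranges, values against d14 are therefore given as well. By mean Pearson r over the genes tested, d1 (0.987) was nearly as far off as d0 (0.986), against 0.989 to 0.992 for the rest. The spread of log2 differences was widest for d7 against d1 (robust SD 0.190), with 0.179 for d1 against d0. The 14 markers taken to define skeletal muscle were all on the array and summed to 192292 (d1) to 204572 (d10) intensity units. On each day from d3 on, 1 of the 14 was at least 1.5-fold higher than at d0, at log2 0.96 to 1.08. The sum does not show this. Most of the 14 lay below d0, namely 13 at d1, 12 at d3, 9 at d5 and d7, and 8 at d10 and d14. Their median log2 ratio was between -0.10 (d1) and -0.04 (d14). Of all genes tested, 22.5% (d14) to 33.4% (d5) lay below d0.

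As a group, the glycolysis and glycogen genes stayed close to their d0 level while a few members moved. The median log2 ratio of the 29 members was -0.06 (d1), -0.01 (d3), -0.05 (d5), -0.01 (d7), 0.02 (d10) and 0.01 (d14), and the median of all genes tested was 0.10, 0.07, 0.05, 0.08, 0.10 and 0.08 on the same days. The log2 range over the 7 arrays had a median of 0.34 among the members and of 0.31 among all genes tested. At d1, 3 of 29 members (10.3%) were at least 1.5-fold higher than at d0, namely Hk2, Gbe1 and Ugp2, and 3.45% of all genes tested were. At least 1.5-fold lower at d1 were 2 members (6.90%), Pfkfb3 and Gpd1, against 1.02% of all genes. At d3 the higher member was Ugp2 (background 1.65%) and the 2 lower ones were again Pfkfb3 and Gpd1 (background 0.843%). From d5 on no member was 1.5-fold higher, with backgrounds of 1.36% (d5), 1.74% (d7), 2.28% (d10) and 0.678% (d14). Pfkfb3 alone was 1.5-fold lower on each of those days, with backgrounds of 0.802%, 0.859%, 0.826% and 0.694%. Over any day, 6.24% of all genes were higher and 1.7% lower by this measure. With d14 in place of d0, 1 member was past 1.5-fold over d1 to d10, namely Gbe1 at d1. The share of all genes with that reference is not given here.

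**Figure D1:**
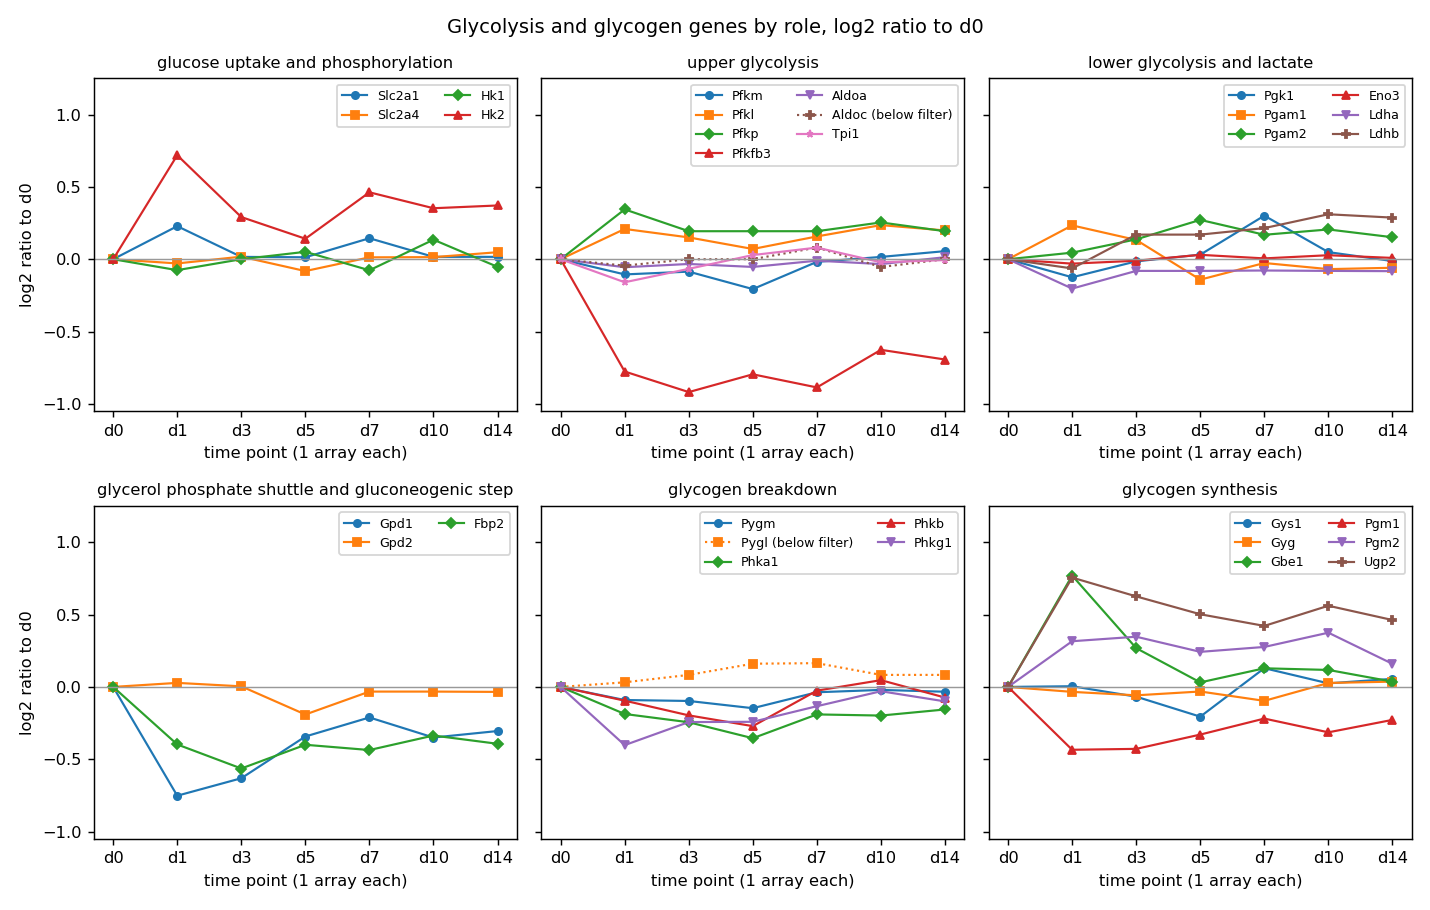
Log2 ratio to d0 (y axis) of the 31 genes on the array at d0 to d14 (x axis, 1 array each), in 6 panels by role, with dotted lines for Aldoc and Pygl, which did not reach the median intensity of an array. Hk2, Gbe1 and Ugp2 peak at d1 (0.72, 0.77 and 0.76), Pfkfb3 lies between -0.92 and -0.63 on all later days, and most other lines stay near 0.

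**Figure D2:**
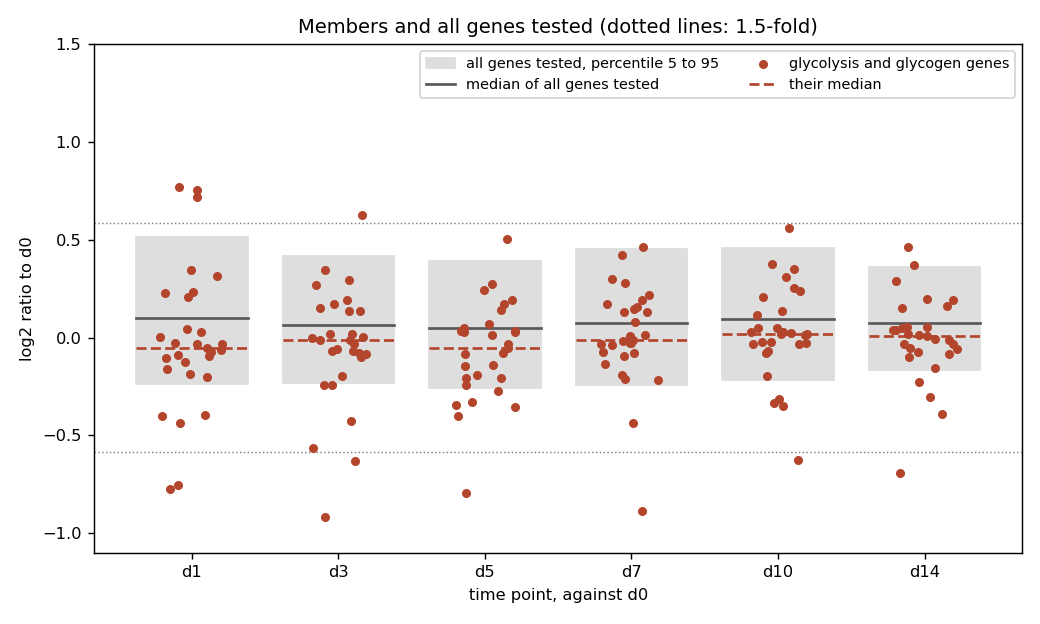
Log2 ratio to d0 (y axis) of the 29 members that passed the intensity filter (points, spread sideways for legibility) by later day (x axis), over grey bars from percentile 5 to percentile 95 of all 12102 genes tested. Solid lines are the median of all genes, dashed lines the median of the members, and dotted lines mark 1.5-fold; the members' median lies below that of all genes on each of the 6 days.

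The direction was counted as well. Above d0 on all 6 later days were 8 of 29 members (27.6%), against 39% of all genes, and these were Slc2a1, Hk2, Pfkl, Pfkp, Pgam2, Gbe1, Pgm2 and Ugp2. Below d0 on all 6 days were also 8 members (27.6%), Pfkfb3, Ldha, Gpd1, Fbp2, Pygm, Pgm1, Phka1 and Phkg1, against 7.68% of all genes. The same d0 array enters all 6 comparisons, so its error is shared by these counts. Within reloading, the d1 array lay below all 5 later ones in 10 members (34.5%), Aldoa, Tpi1, Pgk1, Pgam2, Eno3, Ldha, Ldhb, Gpd1, Pgm1 and Phkg1, against 16.4% of all genes. It lay above all 5 later ones in 7 members (24.1%), Slc2a1, Hk2, Pfkp, Pgam1, Gpd2, Gbe1 and Ugp2, against 29.8%. A lean below d0 was not particular to these genes. At d1 and d10, 62.1% and 41.4% of members lay below d0. Of the 14 muscle markers 92.9% and 57.1% did, and of 12 fast fibre genes 12 and 7. How many of these other muscle genes lay below d0 on all 6 days, or lowest at d1 within reloading, was not tested.

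The design allowed fits across all 12102 genes with limma and Benjamini-Hochberg adjustment. In a trend on log2(day + 1) over the 7 arrays, 0 members had a positive and 0 a negative slope at an adjusted p of 0.05, as did 0% of all genes each way. At an unadjusted p under 0.05, 2 members (6.90%) had a positive slope and 0 a negative one, against 9.19% and 1.45% of all genes. Without d0, again 0 members were called either way, against 0.157% of all genes rising and 0.198% falling, and 4 positive and 3 negative slopes of members (13.8% and 10.3%) had an unadjusted p under 0.05, against 6.88% and 6.39% of all genes. The other 2 fits were chosen after the data were seen and compared 1 array with several, on the assumption that the lone array varies like the others. In the 6 later days over d0, 2 members were lower, Pfkfb3 and Fbp2, and 0 higher, against 0.768% and 3.23% of all genes. In d1 over d3 to d14, 1 member was higher, Gbe1, and 0 were lower, against 3.19% and 0.62% of all genes. At an unadjusted p under 0.05, 4 members were higher and 4 lower in the later days over d0 (13.8% each), against 18.7% and 3.0% of all genes. In d1 over d3 to d14, 6 were higher and 5 lower (20.7% and 17.2%), against 15.2% and 6.40%. The calls over all genes rest on single arrays: without d14, 3 genes were higher and 0 lower in d1 over d3 to d14, where there were 386 and 75 with it, and without d3, 48 genes were higher in the later days over d0, where there were 391. Since each of these contrasts sets a single array, picked out after its values were seen, against the rest, its p-values cannot tell a change from an error of that array or its pool.

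**Figure D3:**
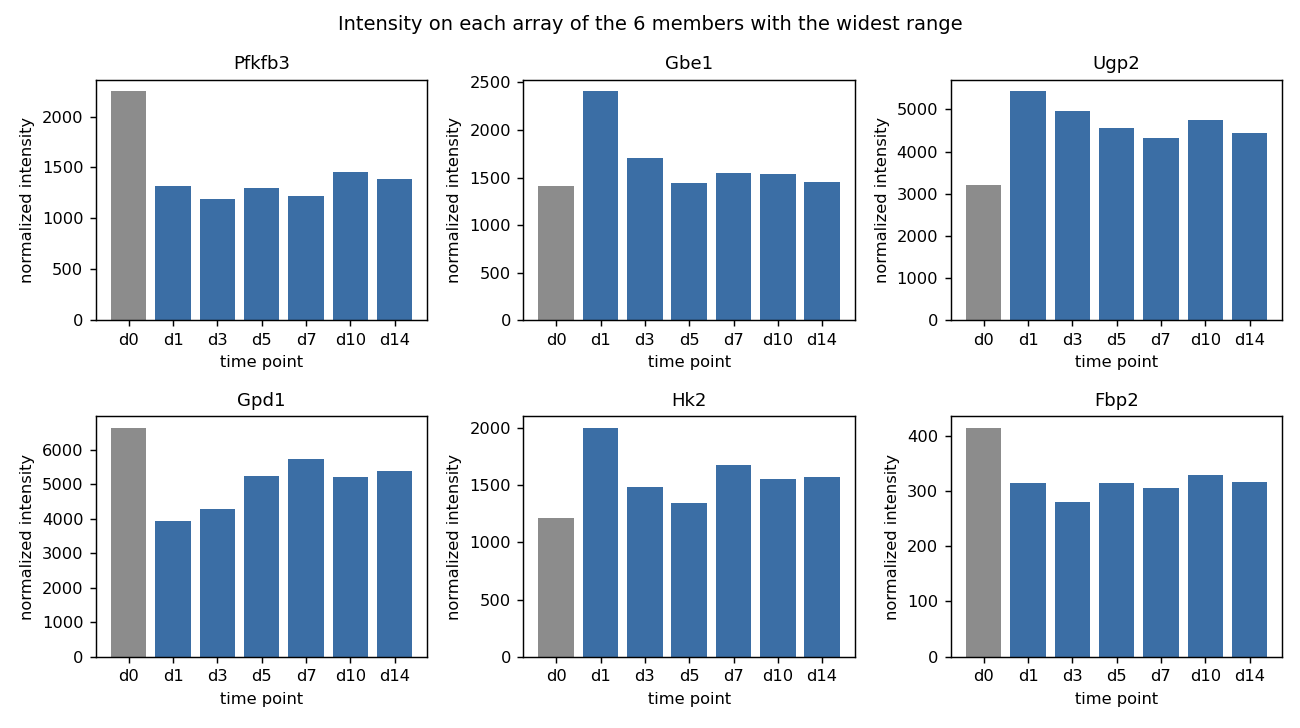
Normalized intensity (y axis, from 0) on each array (x axis, d0 in grey, later days in blue) of the 6 members with the widest range over the 7 arrays. Pfkfb3, Gpd1 and Fbp2 are highest at d0, and Gbe1, Ugp2 and Hk2 are highest at d1.

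Among the genes of glucose uptake and trapping, only Hk2 moved past 1.5-fold. Hk2 encodes hexokinase 2, the insulin- and activity-regulated form of muscle. Its intensity was 1216 (d0), 2002 (d1), 1488 (d3), 1342 (d5), 1676 (d7), 1553 (d10) and 1573 (d14). The d1 array was the highest and the d0 array the lowest, with a second, smaller height at d7. The d1 intensity was 1.65 times that at d0 (log2 0.72) and higher than that at d14 by 0.35 on the log2 scale. In limma, Hk2 was 0.39 higher over the 6 later days than at d0 (SE 0.18, adjusted p = 0.268) and 0.40 higher at d1 than over d3 to d14 (SE 0.11, adjusted p = 0.114), so neither difference passed. The promoter of Hk2, from 250 bases before to 50 bases after the start site in RefSeq GRCm38.p6, lies at chr6:82774405-82774704 on the minus strand. It is shown, like those of Pfkfb3, Fbp2, Gbe1 and Ugp2, because these genes carry differences described here. Capitals in this and the later promoters mark ACGTG, the core bound by hypoxia-inducible factors and part of the CACGTG box, which reads CACGT where it lies on the other strand; CACGTG holds a match on each strand, and these overlap. In Hk2 the matches begin at positions -226 and -52 from the start site.
Hk2 promoter: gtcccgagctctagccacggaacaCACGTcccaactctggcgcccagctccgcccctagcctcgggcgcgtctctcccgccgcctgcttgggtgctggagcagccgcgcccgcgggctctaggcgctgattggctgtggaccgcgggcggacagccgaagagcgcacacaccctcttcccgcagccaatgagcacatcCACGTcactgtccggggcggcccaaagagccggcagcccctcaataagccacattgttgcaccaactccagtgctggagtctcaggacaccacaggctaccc

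Slc2a4, the insulin- and contraction-responsive transporter GLUT4, had intensities of 4051 (d0), 3970.5 (d1), 4101 (d3), 3828 (d5), 4088 (d7), 4092 (d10) and 4189.6 (d14). Its log2 ratio to d0 stayed between -0.08 and 0.05. Slc2a1, the transporter GLUT1 found in most cells, was highest at d1 (812, against 693 at d0; log2 0.23) and lay between 0.01 and 0.15 afterwards. Hk1, the hexokinase of most tissues, gave 2 answers. The row of highest mean is annotated with a single accession that is not from RefSeq, and its log2 ratio stayed between -0.08 and 0.13. The other Hk1 row, annotated with 4 RefSeq accessions, had intensities of 194.0 (d0), 249.9 (d1), 229.8 (d3), 222 (d5), 225 (d7), 255 (d10) and 210.5 (d14). On that row all 6 later arrays lay above d0, by 0.12 (d14) to 0.39 (d10), as in 39% of all genes tested. A further 16 rows carried Hk1 beside other symbols and were not used.

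In upper glycolysis the gene that moved was the regulator Pfkfb3, and the enzymes themselves lay within 0.34 of d0 on the log2 scale. Pfkfb3 makes fructose 2,6-bisphosphate, the strongest activator of phosphofructokinase. Its intensity was 2249.5 (d0), 1313 (d1), 1190.0 (d3), 1296 (d5), 1217 (d7), 1457 (d10) and 1391 (d14). The d0 array stood above all 6 later ones, as in 7.68% of all genes tested. At d3 the d0 intensity was 1.89 times the later one (log2 ratio -0.92). The limma difference of the 6 later days over d0 was -0.78 (SE 0.11, adjusted p = 0.0203), with a single array behind d0. Set against d14, d1 to d10 lay between -0.23 and 0.07, so the difference was between d0 and the rest. RefSeq lists 2 start sites for Pfkfb3. The promoter at chr2:11502041-11502340, on the minus strand, holds a CACGTG at -53, and the one at chr2:11553880-11554179, on the same strand, holds 1 ACGTG, at -60.
Pfkfb3 promoter with CACGTG: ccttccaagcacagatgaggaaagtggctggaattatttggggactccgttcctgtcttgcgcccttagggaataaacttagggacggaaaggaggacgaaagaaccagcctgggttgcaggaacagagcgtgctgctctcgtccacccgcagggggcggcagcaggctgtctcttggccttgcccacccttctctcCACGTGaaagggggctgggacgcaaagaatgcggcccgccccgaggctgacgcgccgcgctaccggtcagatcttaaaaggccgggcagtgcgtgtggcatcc
Pfkfb3 promoter with ACGTG: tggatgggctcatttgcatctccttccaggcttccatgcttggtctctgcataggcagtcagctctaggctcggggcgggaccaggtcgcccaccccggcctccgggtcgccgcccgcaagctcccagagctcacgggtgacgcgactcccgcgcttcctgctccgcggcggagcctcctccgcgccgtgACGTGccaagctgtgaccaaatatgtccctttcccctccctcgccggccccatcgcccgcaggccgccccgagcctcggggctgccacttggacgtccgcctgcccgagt

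Pfkm, the muscle phosphofructokinase, had intensities of 12408 (d0), 11536 (d1), 11692 (d3), 10753 (d5), 12252 (d7), 12546 (d10) and 12898 (d14). The lowest of these, at d5, was lower than d0 by 0.21 on the log2 scale. Pfkp, the platelet form, had intensities of 136 at d0, 173 at d1, 163 at d10 and 156 on the other 4 arrays. Its d1 array was the highest, at 0.34 above d0. All 6 later arrays lay above d0, as in 39% of all genes tested. Pfkl, the liver form, lay between 0.07 (d5) and 0.24 (d10) above d0. Both Pfkl and Pfkp were dim, with intensities not far above the array median. Aldoa, the muscle aldolase, had a log2 range of 0.07 over the 7 arrays at intensities of 19237 to 20181. Tpi1, which interconverts the triose phosphates, ranged from 11305 at d1 to 13348 at d7, and Aldoc, the brain aldolase, had intensities of 105 to 116.

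In lower glycolysis no member reached 1.5-fold on any day. Pgk1, phosphoglycerate kinase 1, had intensities of 7447 (d0), 6829 (d1), 7371 (d3), 7611 (d5), 9176 (d7), 7705 (d10) and 7382 (d14). The d7 array stood above the other 6 (log2 0.30 over d0), and on the gene's other distinct row it was also the highest, at 0.26 over d0. Eno3, the muscle enolase, was the flattest member, with a log2 range of 0.06 at intensities of 15519.6 to 16189.8. Bright genes ranged less in general. The median range was 0.215 among the 92 genes tested with a mean log2 intensity of at least 13, against 0.314 among all genes tested. It was 0.175 among the 6 members that bright. Pgam2, the muscle phosphoglycerate mutase, was above d0 by 0.05 at d1 and by up to 0.27 at d5.

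Pgam1, the mutase of other tissues, was highest in the first days. Its intensity was 619 (d0), 728 (d1), 679 (d3), 561 (d5), 608 (d7), 590.0 (d10) and 594 (d14). It was highest at d1 (log2 0.23) and below d0 from d5 on, although on its other rows the d10 value was above d0 by 0.09 instead of below it by 0.07.

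Lactate dehydrogenase is built from the subunits of Ldha, which predominates in fast muscle, and Ldhb, which predominates in heart and slow muscle. Ldhb had intensities of 1324 (d0), 1266 (d1), 1489 (d3), 1489 (d5), 1536 (d7), 1642 (d10) and 1616 (d14). The d0 and d1 arrays were the lowest and d10 and d14 the highest, at log2 0.31 and 0.29 over d0. Its second row gave 0.35 and 0.38 for the same days. The slope on log2(day + 1) was 0.093 per unit (limma, SE 0.022, adjusted p = 0.308), which did not pass, and without d0 it was 0.12 (SE 0.025, adjusted p = 0.121). Ldha had intensities of 15311 (d0), 13302 (d1), 14478 (d3), 14478 (d5), 14505 (d7), 14478 (d10) and 14460.2 (d14). It was lowest at d1 (log2 -0.20) and at -0.08 on each day after that. Equal values on several arrays, as here at d3, d5 and d10, occurred in 6 of 29 members and in 55.5% of all genes tested. The Ldha promoter with the most matches, at chr7:46845554-46845853 on the plus strand, is shown because it holds 5 of them, the first of 2 CACGTG at -145, in a gene that stayed within 0.20 of d0.
Ldha promoter: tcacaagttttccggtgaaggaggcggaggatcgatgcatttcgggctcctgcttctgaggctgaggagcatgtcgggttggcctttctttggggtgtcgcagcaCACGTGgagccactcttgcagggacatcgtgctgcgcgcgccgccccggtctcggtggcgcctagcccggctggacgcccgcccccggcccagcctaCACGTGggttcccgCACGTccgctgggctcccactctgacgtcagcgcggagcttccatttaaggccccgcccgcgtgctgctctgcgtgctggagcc

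Gpd1, the cytosolic glycerol 3-phosphate dehydrogenase, passes electrons from glycolysis into the glycerol phosphate shuttle and supplies glycerol phosphate for lipid. Its intensity was 6637 (d0), 3940.3 (d1), 4284 (d3), 5233 (d5), 5734 (d7), 5208 (d10) and 5372 (d14). It was lowest at d1 and d3 and highest at d0. At d1 the d0 intensity was 1.68 times the later one (log2 ratio -0.75), and against d14 the d1 value was lower by 0.45. The slope from d1 to d14 was 0.17 per unit of log2(day + 1) (limma, SE 0.042, adjusted p = 0.168) and did not pass. Gpd2, the mitochondrial partner of the shuttle, stayed between -0.19 and 0.03. No promoter entry was matched for Gpd1 or Slc2a4.

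Fbp2, the muscle fructose bisphosphatase, works against phosphofructokinase and lets muscle make glycogen from lactate. It had intensities of 414 (d0), 314 (d1), 279.9 (d3), 314 (d5), 306 (d7), 328 (d10) and 315 (d14). All 6 later arrays lay below d0, as in 7.68% of all genes tested. The limma difference of these days over d0 was -0.42 (SE 0.081, adjusted p = 0.0381), again with a single array behind d0. The adjusted p was 0.0732, 0.0650 and 0.0776 when the d5, d7 or d14 array was left out, so the call rests on those arrays. Against d14, d1 to d10 lay between -0.17 and 0.06. The Fbp2 promoter, at chr13:62858351-62858650 on the minus strand, holds a CACGTG at -42.
Fbp2 promoter: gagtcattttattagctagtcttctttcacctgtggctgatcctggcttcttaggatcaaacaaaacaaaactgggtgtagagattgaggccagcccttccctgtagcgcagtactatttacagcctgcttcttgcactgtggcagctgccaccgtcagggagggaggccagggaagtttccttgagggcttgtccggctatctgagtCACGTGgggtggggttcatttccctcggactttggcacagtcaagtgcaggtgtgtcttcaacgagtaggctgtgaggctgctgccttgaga

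Genes of glycogen synthesis held the 2 highest ratios among the members, and the group held genes below d0 as well. Gbe1, the branching enzyme, had intensities of 1412 (d0), 2409 (d1), 1701 (d3), 1444 (d5), 1544 (d7), 1532 (d10) and 1449 (d14). The d1 array stood alone above the other 6, with d3 next. At d1 the intensity was 1.71 times that at d0 (log2 0.77) and higher than at d14 by 0.73. The limma difference of d1, a single array, over d3 to d14 was 0.65 (SE 0.094, adjusted p = 0.0286). Left out in turn, d5, d7, d10 and d14 gave adjusted p of 0.0625, 0.0695, 0.0604 and 0.0814, and the difference stayed between 0.62 and 0.69 over all settings tried.

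Ugp2, which makes the UDP-glucose that glycogen is built from, had intensities of 3216 (d0), 5432 (d1), 4963 (d3), 4556 (d5), 4309 (d7), 4746 (d10) and 4432 (d14). All 6 later arrays stood above d0, as in 39% of all genes tested, and the highest was d1, at 1.69 times d0 (log2 0.76). Over the later days it was 0.56 higher than at d0 (limma, SE 0.12, adjusted p = 0.0501), just outside the threshold, and against d14 the d1 value was higher by 0.29. The Gbe1 promoter, at chr16:70313699-70313998 on the plus strand, holds no ACGTG in this window. The Ugp2 promoter at chr11:21371218-21371517, on the minus strand, holds 1, at -169, and that of a second start site holds none.
Gbe1 promoter: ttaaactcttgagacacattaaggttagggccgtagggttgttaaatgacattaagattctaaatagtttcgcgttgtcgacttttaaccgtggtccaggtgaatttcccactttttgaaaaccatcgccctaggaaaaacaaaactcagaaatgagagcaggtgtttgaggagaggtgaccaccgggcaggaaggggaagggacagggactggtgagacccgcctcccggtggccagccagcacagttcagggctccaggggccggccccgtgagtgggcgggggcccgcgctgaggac
Ugp2 promoter: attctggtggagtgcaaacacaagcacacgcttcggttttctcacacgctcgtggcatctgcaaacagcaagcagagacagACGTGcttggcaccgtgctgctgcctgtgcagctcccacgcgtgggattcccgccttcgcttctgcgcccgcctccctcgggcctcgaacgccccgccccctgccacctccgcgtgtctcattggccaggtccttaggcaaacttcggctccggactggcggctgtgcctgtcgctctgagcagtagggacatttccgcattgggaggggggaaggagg

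Phosphoglucomutase interconverts glucose 1-phosphate and glucose 6-phosphate, and its genes lay on opposite sides of d0. Pgm1 encodes the main form of muscle, and the protein of Pgm2 acts mostly on pentose phosphates. Pgm1 had intensities of 6861 (d0), 5077 (d1), 5099 (d3), 5460.1 (d5), 5896 (d7), 5519 (d10) and 5858 (d14). All later arrays were below d0, as in 7.68% of all genes tested. The log2 difference was 0.43 at d1 and d3 and 0.22 at d7. Over the 6 days Pgm1 differed from d0 by -0.33 (limma, SE 0.094, adjusted p = 0.102), which did not pass. Pgm2 had intensities of 214 (d0), 266 (d1), 272 (d3), 253 (d5), 259 (d7), 277 (d10) and 239 (d14). All later arrays were above d0, by 0.16 at d14 to 0.37 at d10, as in 39% of all genes tested. Gys1, the muscle glycogen synthase, had intensities of 4774 (d0), 4790.3 (d1), 4557 (d3), 4140.2 (d5), 5223 (d7), 4857 (d10) and 4963 (d14). It was lowest at d5 (-0.21) and highest at d7 (0.13), neighbouring time points. Gyg, the glycogenin that primes the granule, stayed between -0.10 and 0.04.

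The genes of glycogen breakdown lay slightly below d0. Of the 4 that passed the filter, 4 were below d0 at d1, d3, d5, d7 and d14 and 3 at d10, while 22.5% (d14) to 33.4% (d5) of all genes tested were. Their median was -0.14 (d1), -0.22 (d3), -0.26 (d5), -0.09 (d7), -0.03 (d10) and -0.09 (d14). Fast fibre genes also lay below d0, 12 of 12 at d1, 11 at d3 and 7 (d10) to 9 (d7) on the later days. The medians of that list were -0.12 (d1), -0.08 (d3), -0.10 (d5), -0.06 (d7), -0.05 (d10) and -0.04 (d14). Phkg1, the catalytic subunit of muscle phosphorylase kinase, had intensities of 3356 (d0), 2539.6 (d1), 2836 (d3), 2839.7 (d5), 3060.0 (d7), 3288 (d10) and 3132 (d14). It was lowest at d1 (log2 -0.40) and nearest to d0 at d10 (-0.03). The slope from d1 to d14 was 0.12 per unit of log2(day + 1) (limma, SE 0.024, adjusted p = 0.115) and did not pass.

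Phka1, the muscle regulatory subunit of the same kinase, had intensities of 5269.7 (d0), 4629 (d1), 4449 (d3), 4121 (d5), 4619 (d7), 4594 (d10) and 4729.9 (d14). It was lowest at d5 (log2 -0.35) and below d0 on every later array, as were 7.68% of all genes tested. Phkb, another regulatory subunit, was also lowest at d5 (-0.27) and reached 0.05 at d10. Pygm, the muscle glycogen phosphorylase, had intensities of 15997 (d0), 15024 (d1), 14956 (d3), 14446 (d5), 15593 (d7), 15769 (d10) and 15632 (d14). Its log2 ratio was lowest at d5 (-0.15), as were those of Phka1 and Phkb. The d5 array was the lowest in 8 of 29 members and in 15.3% of all genes tested. Pygl, the liver phosphorylase, was at 103 to 115 on all arrays.

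Pairs of enzyme forms were compared as the change since d0 in the log2 ratio of one form over the other, which sets no level against another. Pgm1 over Pgm2 was below its d0 value on all 6 days, with changes of -0.75 (d1), -0.78 (d3), -0.57 (d5), -0.50 (d7), -0.69 (d10) and -0.39 (d14). Pfkm was down against Pfkp by 0.45 at d1 and by 0.14 at d14, and against Pfkl by 0.31 and 0.14 on those days. Ldha over Ldhb was at -0.14 at d1 and -0.39 and -0.37 at d10 and d14. Gpd1 over Gpd2 was at -0.78 at d1 and -0.15 at d5. Pgam2 over Pgam1 lay on both sides of d0, with -0.19 at d1 and 0.41 at d5. Hk2 over Hk1 was at 0.79 at d1 on the Hk1 row of highest mean and at 0.35 on the row with RefSeq accessions, where it was between -0.05 and 0.25 on the other days. Slc2a4 over Slc2a1 was at -0.26 at d1 and between -0.13 and 0.03 on the other days. None of these changes has a test, since each is 1 array against 1 array.

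**Figure D4:**
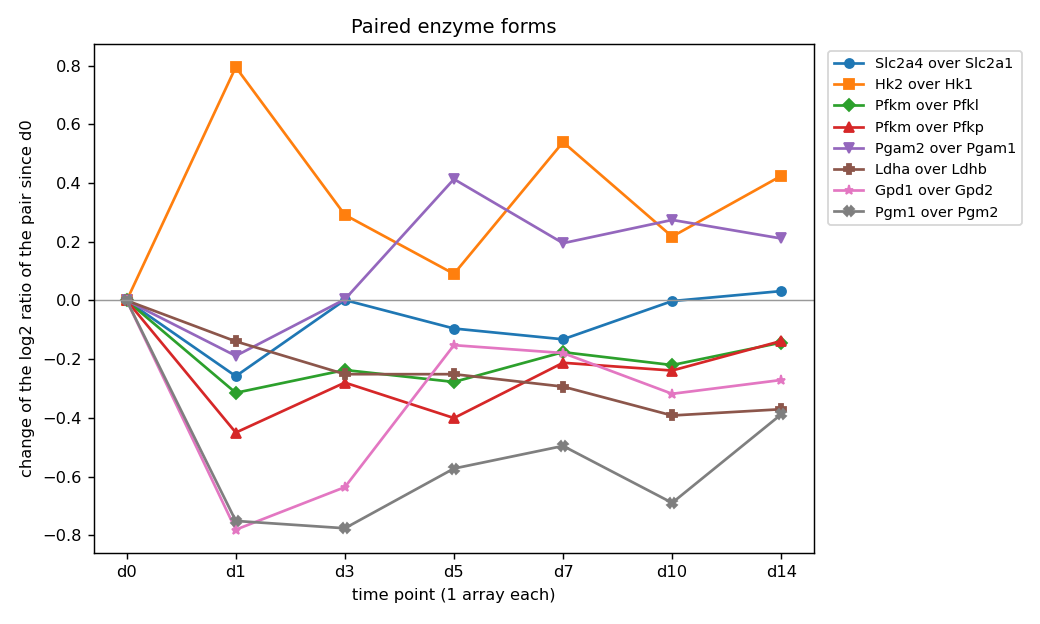
Change since d0 in the log2 ratio of paired enzyme forms (y axis) at d0 to d14 (x axis, 1 array each), 1 line for each of 8 pairs. Pgm1 over Pgm2 lies between -0.78 and -0.39 on all later days, Gpd1 over Gpd2 is lowest at d1 (-0.78), and Hk2 over Hk1, drawn for the Hk1 row of highest mean, is highest at d1 (0.79, against 0.35 on the row with RefSeq accessions).

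Markers of several other cell types moved over the same days. The counts below stand against a general shift from d0. Of all genes tested, 70.9% lay above d0 at d1, and 61.1% (d5) to 72.2% (d10) did over the later days. Between 22.5% (d14) and 33.4% (d5) lay below it. Summed intensities of 20 macrophage markers were 7865 at d1 and 7617 at d3, against 5458 at d0, but 5281 at d7 and 4903 at d14, and 13 of the 14 that passed the filter were above d0 at d1. Those of 16 neutrophil markers were 3749 at d1 and 10437 at d10, against 2079 at d0, and 12 of 13 past the filter were above d0 at d1. Fast fibre genes had medians between -0.12 (d1) and -0.04 (d14), with 12 of 12 below d0 at d1. Slow fibre genes had medians of 0.43 (d1), 1.11 (d3), 0.54 (d5), 0.27 (d7), 0.74 (d10) and 0.20 (d14), with 12 of 12 above d0 on d1, d3, d5 and d10. Endothelial markers were above d0 in 12 of 12 at d3, d7, d10 and d14, with medians of 0.18 to 0.27 on those days. Adipocyte markers past the filter were above d0 in 8 of 10 at d1, 10 of 10 at d10 and 9 of 10 at d14. Their medians on those days were 0.15, 0.13 and 0.26. Schwann cell markers were above d0 in 6 of 6 at d1, 3 of 6 at d10 and 6 of 6 at d14, with medians of 0.30, 0.03 and 0.34. Erythroid markers were above d0 in 4 of 5 at both d1 and d10, with medians of 0.09 and 0.17. At d10 the median was 0.58 for fibroblast and tendon markers and 1.12 for the 5 bone and cartilage markers past the filter. The fibroblast and tendon median was 0.01 (d1), 0.19 (d3), 0.45 (d5), 0.43 (d7) and 0.46 (d14). For the 5 bone and cartilage markers the median was 0.36 (d1) to 0.49 (d3) on the days other than d10. Over all 9 bone and cartilage markers on the array it was 0.34 at d10 and 0.17 (d1) to 0.40 (d7) on the other days. A dim marker could pass the filter through a single high array. No marker of these lists was listed at 0. At d1 the forms of other tissues, Pfkp, Pfkl, Pgam1, Slc2a1 and Pgm2, lay 0.21 to 0.34 above d0. The Hk1 row with RefSeq accessions lay 0.37 above it. Among all genes tested the d1 median was 0.10 and percentile 75 was 0.24. Ldhb, Gpd2, the Hk1 row of highest mean, and Aldoc and Pygl, which did not pass the filter, lay between -0.08 and 0.03 at d1. The part of these cells or of the fibre types in the members' values was not tested.

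Of 92 other genes of glycolysis, glycogen and their regulation, 85 were on the array and 74 passed the filter. At least 1.5-fold higher on at least 1 day were 7 of the 74 (9.46%), and 0 were 1.5-fold lower, against 6.24% and 1.7% of all genes tested. Nr4a3, an orphan nuclear receptor induced in muscle by exercise, had an intensity of 271 at d1, against 76.1 at d0 (log2 1.83). It stayed 0.58 to 0.94 above d0 afterwards. Its d0 value lay below the median of that array, 129.9, so these ratios start from a dim value. Egln3, an oxygen-sensing prolyl hydroxylase, was at 3447 at d1, against 1640.4 at d0 (1.07), and between -0.20 and 0.26 from d3 on. Slc16a1, the lactate transporter MCT1, was at 1736 at d1, against 976 at d0 (0.83). Also past 1.5-fold at d1 were Prkag2, a regulatory subunit of AMP-activated protein kinase (0.82), and Tbc1d1, a brake on GLUT4 traffic (0.78). Irs1, the insulin receptor substrate, was at 0.70 at d1 and 0.82 at d3. Pdhb, a subunit of pyruvate dehydrogenase, was highest at d10 (0.65).

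In the fit of the 6 later days over d0, 1 of the 74 was higher and 1 lower (1.35% each, against 3.23% and 0.768% of all genes). Dlat, another subunit of pyruvate dehydrogenase, differed by 0.38 (limma, SE 0.071, adjusted p = 0.0368), and the adjusted p ran up to 0.0731 over 14 settings, 8 of which kept the call. Ppp1ca, a catalytic subunit of protein phosphatase 1, differed by -0.35 (SE 0.057, limma adjusted p = 0.0279), and 11 of 14 settings kept the call. At d1 over d3 to d14, Nr4a3 was higher by 1.13 and Egln3 by 1.11 (limma adjusted p = 0.0201 and 0.0301). In the same fit the kinase genes Akt1 and Prkaa1 were higher by 0.48 and 0.45 (limma adjusted p = 0.0280 and 0.0269). These were 4 of the 74 (5.41%, against 3.19% of all genes), and none of the 4 stayed past the threshold without the d14 array.

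**Figure D5:**
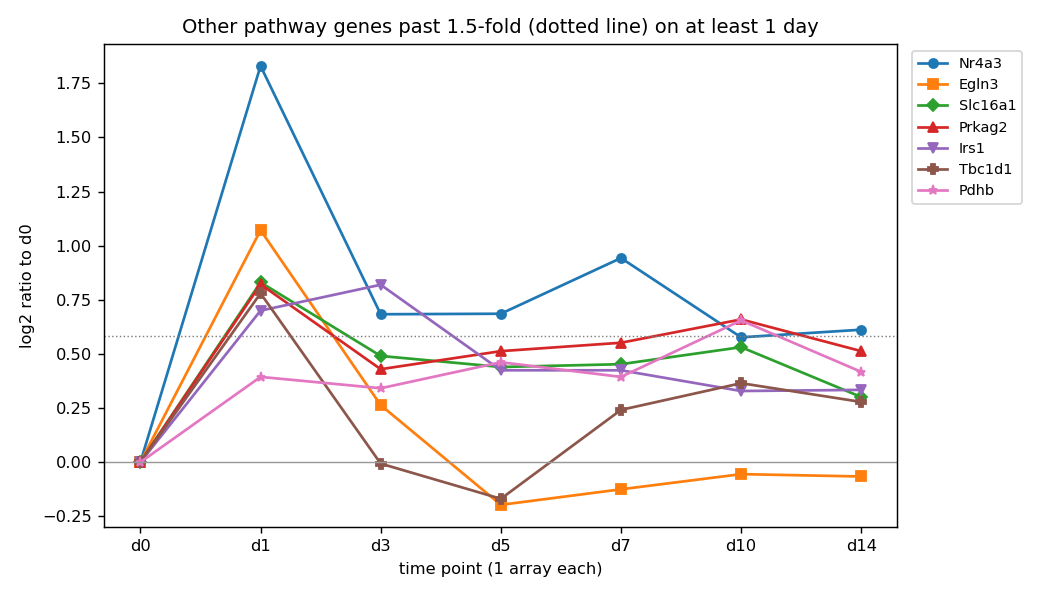
Log2 ratio to d0 (y axis) of the 7 other pathway genes past 1.5-fold (dotted line) on at least 1 day, at d0 to d14 (x axis, 1 array each). Nr4a3 (1.83), Egln3 (1.07), Slc16a1, Prkag2 and Tbc1d1 are highest at d1, Irs1 at d3 (0.82) and Pdhb at d10 (0.65).

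Promoter windows of 33 of the 35 genes were matched in RefSeq, 49 windows in all. ACGTG, on either strand, occurred in 44.9% of them, covering 19 genes, and in 19.6% of all 32851 windows of that length. CACGTG, which contains it, occurred in 10.2%, against 7.15%, and the wider E-box CANNTG, of which CACGTG is one instance, in 73.5%, against 72.3%. TCAGGTT occurred in 2.04%, against 4.07%, and the MEF2 box in 4.08%, against 3.19%. Windows were not matched on base composition, and several belong to start sites of the same gene. Of the 5 members past 1.5-fold, Hk2, Pfkfb3 and Ugp2 hold an ACGTG in a window, Gbe1 does not and Gpd1 has no entry, while Aldoa, Pygm and Ldha, with small ratios, hold it too. A match is a run of letters and not evidence of binding.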

How the data were processed

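For each of the 7 time points, RNA from the plantaris of 6 mice was combined and put on 1 array. The input is given as 250 ng in the labelling protocol and 100 ng in the design text. The deposited values are intensities that the authors had normalized between arrays, per the file headers and the values. The submitters' processing notes name Partek without a step. How the values were normalized and on which build is not given in the sources used here.

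Log2 values were formed with a pseudocount of 0. Rows with 1 gene symbol in the platform annotation were used (21789 of 35556; 1621 had several and 12146 none), 1 row per gene, by highest mean. A gene was tested when it reached the median of an array on at least 1 array. For trends and differences between arrays, limma 3.58.1 was run under R 4.3.3 over all 12102 genes. It used lmFit, then eBayes with an intensity trend, two-sided, with Benjamini-Hochberg adjustment at 0.05. The fit was also run on simulated data in which every array varied alike. That run cannot show how a fit of 1 array against several behaves when the lone array varies more. The error of the limma fits is the difference between pools of different days, and the precision is limited by there being 7 arrays. All other steps used Python 3.11.15, numpy 2.4.6, pandas 2.3.3 and matplotlib 3.10.9.

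Values on all arrays are given for the 14 members with the widest log2 range and for Slc2a4, Pfkm, Ldha, Gys1 and Pygm; other pathway genes are named where they passed 1.5-fold on a day. The members, lists and tests were chosen with earlier results of these data known. Processed copies of many glycolytic genes exist in the mouse genome, and signal shared with them cannot be separated here.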

Additional observations from a re-analysis of the deposited data

How the results depend on the processing

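No paired analysis was possible because each time point is 1 array. The ratios of single members to d0 have no test, so none of them could be called under an alternative. With d14 as the reference, Pfkfb3 at d3 was at -0.23 instead of -0.92 and Ldhb at d10 at 0.02 instead of 0.31. Gbe1 at d1 was at 0.73 instead of 0.77. The counts of members past 1.5-fold were 3 higher and 2 lower. They became 1 and 0 with d14 as the reference, and also against the mean of the other 6 arrays. At the lower threshold tried they were 5 and 6, and at 2-fold 0 and 0. The shares of all genes under these references and thresholds are not given here. No excess over all genes can therefore be read from these alternative counts. Less the median ratio of all genes, the members' median was -0.157 at d1 and -0.0793 at d10. In the 6 later days over d0, members higher (0) became 1 with no filter and with quantile normalization, in both cases Ugp2, and 0 to 1 with an array left out, the 1 being Ugp2 without d1. Members lower (2) became 1 with the filter at percentile 75 and with equal array medians, and 1 to 2 with an array left out; Fbp2 was the one lost. In d1 over d3 to d14, members higher (1) became 0 to 1 with an array left out, and members lower (0) became 1 with quantile normalization, namely Ldhb. The limma adjusted p of Pfkfb3 lay between 0.00705 and 0.0473 over 14 settings, that of Fbp2 between 0.0222 and 0.0835, that of Ugp2 between 0.0289 and 0.105, and that of Gbe1 between 0.0148 and 0.0814 over 13. The 2 fits of 1 array against several, their alternatives, those of other pathway genes, and the other rows of Hk1, Pgk1 and Pgam1 were chosen after the data were seen. In these fits the share of all genes called also changed with the setting. For genes lower in the later days over d0, it was far larger with no filter than in the main fit. The member counts under these alternatives therefore show no excess over all genes. Signal over background could not be given per gene, since scanner files were not used here.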
